A study of Mus musculus with 2 samples.

Results

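Gluconeogenesis, the making of glucose from lactate, glycerol and amino acids, was followed in spatial transcriptomes of mouse liver through 7 of the 19465 genes in the count tables: Pcx, Got1, Pck1, Fbp1, G6pc, Slc37a4 and Ppargc1a. They were taken by symbol, for their place in the pathway, with earlier results of these data known. All 7 had at least 100 UMIs over both sections and therefore passed the filter on low counts. The sections came from 1 mouse with wild-type AEG-1 (AEG-1-WT, here WT) and 1 mouse of the mutant line AEG-1-C75S (here C75S). The C75S animal carried a CRISPR/Cas9 knock-in in every cell of the body, by which the cysteine of AEG-1 that is palmitoylated was replaced by serine, and the WT animal was its littermate from matings between heterozygotes. Both mice were naïve females of 8 weeks without treatment, and the same lobe was fixed in formalin and embedded in paraffin. The feeding state and the hour of collection were not given in the sources used here.

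Gluconeogenesis reverses glycolysis by its own enzymes at the steps that cannot run backwards. Pyruvate is carboxylated in mitochondria, oxaloacetate is turned into phosphoenolpyruvate in the cytosol, and fructose 1,6-bisphosphate and glucose 6-phosphate are then dephosphorylated to release glucose. In the liver lobule the pathway is known to be strongest in periportal hepatocytes, which receive blood rich in oxygen, glucagon and amino acids, whereas glycolysis and the use of glucose are placed near the central vein. Glucagon, glucocorticoids and insulin set the transcription of Pck1 and G6pc above all.

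The 10x Visium assay used here hybridises pairs of probes to the RNA of fixed tissue, ligates them and counts them by unique molecular identifiers (UMIs) on barcoded spots. A spot can hold several cells, so that fewer hepatocytes and less RNA per hepatocyte cannot be told apart. Spots with at most 50000 UMIs were kept, which left 2309 spots with 42246988 UMIs in WT and 2163 spots with 41674347 UMIs in C75S, with medians of 16830 and 18808 UMIs per spot. Both tables use the same set of slide barcodes, and 1896 barcodes occurred in both. The markers of hepatocytes Alb, Apoa1, Ttr, Serpina1c and Fgb summed to 178500 CPM in WT and 186000 CPM in C75S, where CPM are the UMIs of a gene per 1000000 UMIs of the same spots. Most of these sums was Alb, at 127400 and 121000 CPM. The log2 ratio of C75S over WT was 0.50 for Apoa1, 0.47 for Fgb, 0.19 for Ttr, -0.07 for Alb and -0.44 for Serpina1c. The sums therefore do not show a like content of hepatocytes. Mtdh, the gene of AEG-1, was at 74.4 and 73.3 CPM, which does not check the genotype since the edit changes 1 codon. Each genotype had 1 section, so no test between the genotypes was possible, every interval given in brackets is a 95% interval of counting error only, and every ratio compares these sections and not the conditions.

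To place the spots along the lobule, they were ranked within each section by the ratio of Cyp2f2, a periportal cytochrome, to Cyp2e1, a pericentral one, each with 1 UMI added, and were divided into 5 bins of equal size. Bin 1 is the portal end and bin 5 the central end, with 461 or 462 spots per bin in WT and 432 or 433 in C75S. None of the 7 genes sets the axis. Other markers of the zones followed it in both sections. The log2 ratio of bin 1 over bin 5 was 2.11 in WT and 1.93 in C75S for Hal, the enzyme that degrades histidine, 2.0 and 1.93 for Hsd17b13, a lipid droplet protein, -2.41 and -2.19 for Cyp1a2, and -3.08 and -2.96 for Oat, ornithine aminotransferase. Ass1, a urea cycle enzyme listed as periportal, was the exception, at -0.00 and 0.18. It was scarce in both sections, at 10.2 CPM in WT and 9.12 CPM in C75S, so its ratios rest on fewer UMIs than those of the other markers. Why it did not follow the axis was not tested. The axis itself differed between the sections, since the log2 ratio of Cyp2f2 was 2.72 in WT and 2.29 in C75S.

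Pck1 and G6pc, whose levels are known to answer to the same hormones, differed between the sections in opposite directions, and their promoters are therefore shown. Both come from the RefSeq annotation of GRCm38.p6 and run from 250 bases before to 50 bases after the annotated start, on the plus strand, at chr2:173152823-173153122 for Pck1 and chr11:101367466-101367765 for G6pc. The gene positions given further below are from the GENCODE annotation, in which both genes start before these RefSeq starts and inside the windows shown. Capitals mark matches, on either strand, to 5 motifs that were searched: TGACG (the core of the cyclic AMP response element), TGTTTAC (bound by FOXO factors), TGTTCT (the right part of a glucocorticoid receptor site), CCAAT and TATAAA.
Pck1: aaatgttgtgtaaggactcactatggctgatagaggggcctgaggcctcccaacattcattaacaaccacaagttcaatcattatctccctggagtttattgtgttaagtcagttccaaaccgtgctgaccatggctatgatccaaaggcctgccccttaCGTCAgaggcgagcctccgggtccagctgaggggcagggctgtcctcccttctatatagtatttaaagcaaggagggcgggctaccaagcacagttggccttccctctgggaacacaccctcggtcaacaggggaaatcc
G6pc: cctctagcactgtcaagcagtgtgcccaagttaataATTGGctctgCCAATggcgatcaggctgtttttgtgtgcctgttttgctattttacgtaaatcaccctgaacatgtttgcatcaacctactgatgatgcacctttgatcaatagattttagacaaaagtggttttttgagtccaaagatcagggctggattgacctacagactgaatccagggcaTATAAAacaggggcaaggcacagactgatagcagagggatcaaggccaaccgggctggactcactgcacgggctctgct
With the annotated start counted as 0, the Pck1 promoter held TGACG on the reverse strand at -90. The G6pc promoter held CCAAT at -214 on the reverse strand and at -204 on the forward strand, and TATAAA at -29. TGACG occurred in 20.8% of 32851 promoters of this length, CCAAT in 37.4% and TATAAA in 13.6%. TGTTTAC, found in 3.65% of promoters, and TGTTCT, found in 19.0%, had no match in these windows of any of the 7 genes. Among the other promoters, TGACG was found in Ppargc1a and in 2 of the 3 promoters annotated for Slc37a4, and TATAAA in the remaining promoter of Slc37a4. CCAAT occurred 6 times in Got1, 1 time in Fbp1, and 3 times and 1 time in the 2 promoters of Pcx. These are exact matches of letters, not measured binding sites. Variants of the motifs were not searched, so the lack of a match does not show that a site is absent.

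G6pc stood apart from the other 6 genes. Its level was 2.65-fold higher in the C75S section, whereas each of the others differed by at most 1.24-fold. G6pc encodes the catalytic subunit of glucose 6-phosphatase, which makes the last step to free glucose in the endoplasmic reticulum, and it lies at chr11:101367561-101377903 (mm10, plus strand). It had 3321 UMIs or 78.6 CPM [76.0 to 81.3] in WT and 8699 UMIs or 208.7 CPM [204.4 to 213.2] in C75S, a log2 ratio of 1.41 [1.35 to 1.47]. It was the only 1 of the 7 genes past 1.5-fold, against a background of 5.95% of genes (669 of 11248 with at least 100 UMIs, with 1.87% higher and 4.08% lower), and 25 of those genes had a higher ratio. The median log2 ratio of the 7 genes was -0.13, with 2 above 0 and 5 below, and that of all genes was -0.05.

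As a ratio, the difference in G6pc was zonal. From bin 1 to bin 5, the G6pc level in WT was 132.5, 89.3, 66.3, 59.0 and 48.4 CPM. In C75S it was 232.5, 225.1, 219.3, 188.1 and 179.2 CPM. In relative terms, the level thus declined steeply towards the central vein in WT and only slightly in C75S. The lowest bin of C75S lay above the highest of WT. The log2 ratio between the sections was 0.81 [0.70 to 0.92] in bin 1, 1.33 in bin 2, 1.73 in bin 3, 1.67 in bin 4 and 1.89 [1.73 to 2.05] in bin 5. As fold values, G6pc was 1.75-fold higher at the portal end and 3.70-fold higher at the central end. The WT level in the denominator of these ratios itself fell along the axis. Taken in CPM, the gap between the sections was smallest in bin 1 and largest in bin 3, and did not keep rising towards the central end. The difference of the log2 ratios, bin 1 minus bin 5, was -1.08 [-1.28 to -0.88], a factor of 2.11, and 51 of 9954 genes had a lower value. No other of the 7 genes differed by more than 1.5-fold between the ends, against a background of 6.98% of 9954 genes (3.38% higher and 3.61% lower).

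**Figure D1:**
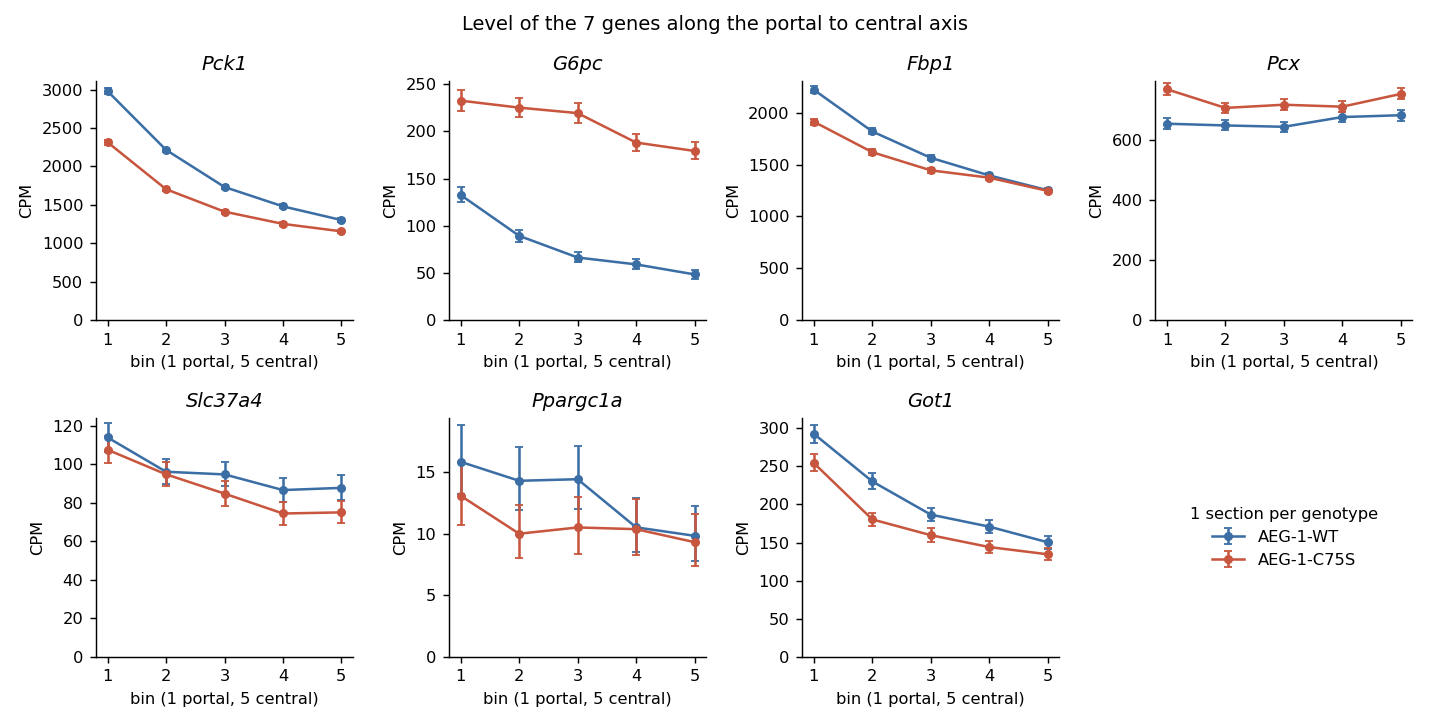
Level of each of the 7 genes in CPM (y axis, from 0) in the 5 bins of spots from the portal end (1) to the central end (5), in the WT section (blue) and the C75S section (red). Points are sums over the spots of 1 section and bars are 95% Poisson intervals of counting error. The G6pc curve of WT goes from 132.5 to 48.4 CPM and that of C75S from 232.5 to 179.2 CPM, while the Pck1 curves keep a similar shape.

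A finer division gave the same picture. Over 10 groups of spots in place of 5, G6pc in WT was lower at each of the 9 steps from the portal to the central end and 3.33-fold higher in the first group than in the last (147.6 against 44.3 CPM). In C75S, 7 of 9 steps went down and the ends differed by 1.34-fold (235.3 against 175.8 CPM). As a log2 ratio of bin 1 over bin 5, the zonation of G6pc was 1.45 [1.28 to 1.62] in WT, where 50 of 8607 genes had a higher value, and 0.38 [0.28 to 0.47] in C75S, where 396 of 8598 did.

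Single spots showed a shift of the whole distribution and not a few extreme spots. The median G6pc level of spots was 64.8 CPM in WT, with quartiles of 0.0 and 120.1, and 198.0 CPM in C75S, with quartiles of 124.1 and 283.7, so the lower quartile of C75S lay above the upper quartile of WT. Counts per spot were small, with a median of 1 G6pc UMI in WT and 4 in C75S. The 10% of spots with the highest level held 29.3% of the G6pc UMIs in WT and 16.9% in C75S.

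**Figure D2:**
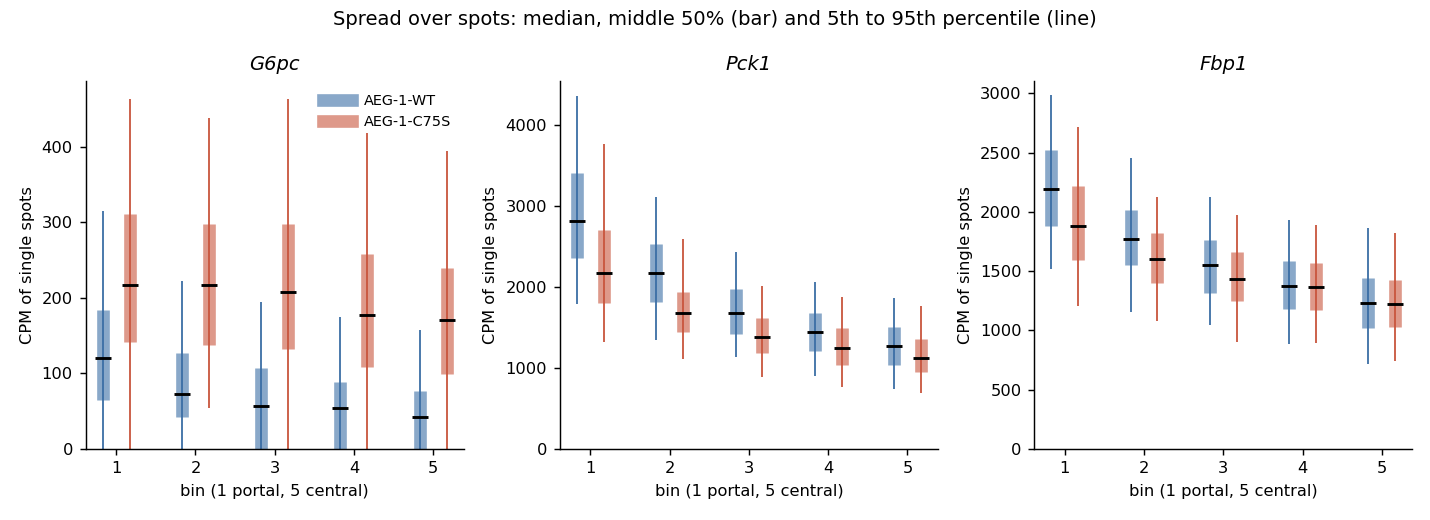
Levels of G6pc, Pck1 and Fbp1 in single spots (y axis, CPM) by bin (x axis) in the WT section (blue) and the C75S section (red). Black lines are medians over spots, boxes span the quartiles and thin lines the 5th to 95th percentiles, which describe spots and not replicates. The median of G6pc goes from 120.2 CPM in bin 1 to 42.2 CPM in bin 5 in WT, and from 217.1 to 170.2 CPM in C75S.

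Slc37a4, the carrier that brings glucose 6-phosphate to glucose 6-phosphatase, did not follow G6pc. It had 4039 UMIs or 95.6 CPM [92.7 to 98.6] in WT and 3635 UMIs or 87.2 CPM [84.4 to 90.1] in C75S, a log2 ratio of -0.13 [-0.20 to -0.07]. Along the axis it was at 113.9, 96.1, 94.7, 86.6 and 87.7 CPM in WT and at 107.5, 94.8, 84.7, 74.4 and 74.99 CPM in C75S. Both sections thus had a shallow portal bias, with log2 ratios of bin 1 over bin 5 of 0.38 and 0.52. The sections differed little at the portal end (-0.08 [-0.22 to 0.05]) and slightly more at the central end (-0.23 [-0.38 to -0.07]), but the interval of the difference between the ends, 0.14 [-0.07 to 0.35], includes 0.

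Pck1, the cytosolic carboxykinase that makes phosphoenolpyruvate from oxaloacetate, was lower in C75S in every bin. It lies at chr2:173153048-173159273 (mm10, plus strand) and had 81667 UMIs or 1933 CPM [1920 to 1946] in WT and 65165 UMIs or 1564 CPM [1552 to 1576] in C75S. The log2 ratio was -0.31 [-0.32 to -0.29], a difference of 1.24-fold, which 1584 of 11248 genes exceeded in the lower direction. From bin 1 to bin 5 the level was 2979, 2215, 1732, 1480 and 1302 CPM in WT and 2314, 1703, 1411, 1252 and 1155 CPM in C75S. Both curves went down at every step, also at all 9 steps between 10 groups of spots. Pck1 is used as a periportal marker in the study, and its log2 ratio of bin 1 over bin 5 was 1.19 [1.16 to 1.23] in WT and 1.0 [0.97 to 1.04] in C75S. The ratio between the sections was -0.36 in bin 1, -0.38 in bin 2, -0.30 in bin 3, -0.24 in bin 4 and -0.17 in bin 5. The difference between the ends, -0.19 [-0.24 to -0.14], was larger than counting error but small beside the common decline. Of 9954 genes, 1894 had a lower value.

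The balance of G6pc to Pck1 differed between the sections in every bin, least in bin 1. Per 1000 Pck1 UMIs there were 40.7 [39.3 to 42.1] G6pc UMIs in WT and 133.5 [130.5 to 136.5] in C75S. In WT this number varied little along the axis, from 44.5 in bin 1 to 37.2 in bin 5. In C75S it was 100.5 in bin 1, 132.2 in bin 2, 155.4 in bin 3, 150.2 in bin 4 and 155.2 in bin 5. Probes of the genes may differ in efficiency, so only the comparison of this number between spots and sections can be read.

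**Figure D3:**
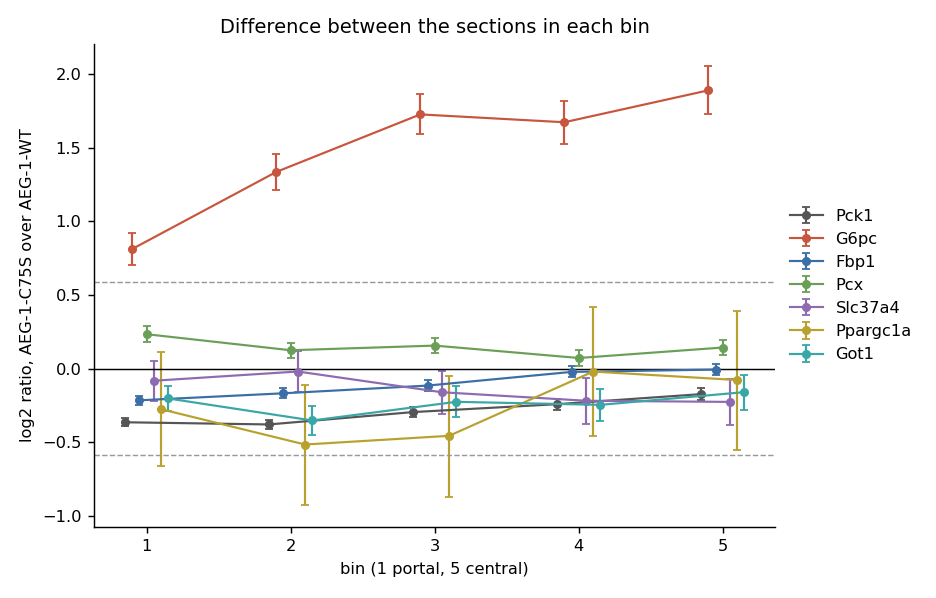
Log2 ratio of C75S over WT (y axis) for the 7 genes in each bin from the portal end (1) to the central end (5). Bars are 95% intervals of counting error, points are shifted sideways for legibility, and dashed lines mark 1.5-fold in either direction. G6pc goes from 0.81 to 1.89, and the other genes lie between -0.52 and 0.23.

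Fbp1, fructose 1,6-bisphosphatase, lost its difference between the sections towards the central vein. It had 69612 UMIs or 1648 CPM [1636 to 1660] in WT and 63291 UMIs or 1519 CPM [1507 to 1531] in C75S, a log2 ratio of -0.12 [-0.13 to -0.10]. Along the axis the level was 2222, 1820, 1566, 1396 and 1253 CPM in WT and 1914, 1620, 1445, 1374 and 1247 CPM in C75S. The sections differed by -0.22 [-0.25 to -0.18] in bin 1 and by -0.01 [-0.05 to 0.03] in bin 5, so that the curves met at the central end. The difference between the ends was -0.21 [-0.26 to -0.16], and 1770 of 9954 genes had a lower value. For the periportal markers it was -0.44 (Cyp2f2), -0.18 (Hal), -0.07 (Hsd17b13), 0.09 (Gls2), 0.15 (Arg1) and 0.18 (Ass1). Cyp2f2 itself sets the axis, so its value is no independent comparison. Of the other markers, Hal was close to Fbp1, Hsd17b13 was nearer to 0, and Gls2, Arg1 and Ass1 went the other way. By the 1770 genes with a lower value, that of Fbp1 is not particular to it. The zonation of Fbp1, 0.83 in WT and 0.62 in C75S, was correspondingly flatter in C75S.

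Pcx, the mitochondrial pyruvate carboxylase, was the member without zonation. Its level was 654.2, 648.4, 643.9, 676.4 and 682.4 CPM from bin 1 to bin 5 in WT and 768.9, 706.8, 717.4, 710.9 and 753.4 CPM in C75S. The log2 ratio of bin 1 over bin 5 was -0.06 [-0.12 to -0.01] and 0.03 [-0.02 to 0.08], and its sign changed with the scaling in WT and with 10 groups of spots in C75S. C75S was higher in all 5 bins, with log2 ratios from 0.07 to 0.23 and a ratio of 0.15 [0.12 to 0.17] over the section (660.7 against 731.0 CPM, from 27913 and 30462 UMIs). The difference between the ends was 0.09 [0.02 to 0.17], larger than counting error but small, and it kept its sign under 12 of 12 settings. Of 9954 genes, 3585 had a higher value. Besides G6pc, Pcx was the other gene of the 7 that was higher in C75S.

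Got1, the cytosolic aspartate aminotransferase that turns aspartate exported from mitochondria back into oxaloacetate, was lower in C75S in every bin. It had 8684 UMIs or 205.6 CPM [201.3 to 209.9] in WT and 7258 UMIs or 174.2 CPM [170.2 to 178.2] in C75S, a log2 ratio of -0.24 [-0.28 to -0.19]. The level went from 292.8 to 150.4 CPM between the ends in WT and from 254.4 to 134.6 CPM in C75S, so the zonation was 0.96 and 0.92. The ratio between the sections lay from -0.35 to -0.16 over the bins. The interval of the difference between the ends, -0.04 [-0.19 to 0.10], includes 0, and the value was 0.14 with 10 groups of spots.

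Ppargc1a, the coactivator PGC-1α that is known to induce the pathway in fasting, was scarce. It had 549 UMIs or 13 CPM [11.9 to 14.1] in WT and 443 UMIs or 10.6 CPM [9.66 to 11.7] in C75S, a log2 ratio of -0.29 [-0.47 to -0.11]. Its level went from 15.8 to 9.83 CPM between bin 1 and bin 5 in WT and from 13.1 to 9.31 CPM in C75S. With 78 to 129 UMIs per bin, the interval of the difference between the ends (-0.20 [-0.81 to 0.42]) allows a flat as well as a zonal difference.

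In WT, 5 of the 7 genes (Pck1, G6pc, Fbp1, Ppargc1a and Got1) were more than 1.5-fold higher at the portal than at the central end, beside 7.71% of 8607 genes past this limit (2.68% higher and 5.03% lower). In C75S, 3 genes (Pck1, Fbp1 and Got1) passed, beside 6.52% of 8598 genes (1.99% higher and 4.54% lower). G6pc was below the limit in C75S under every scaling and division tried. Ppargc1a (0.49) and Slc37a4 (0.52) lay just under it and passed it under 3 other scalings, which raised the count in C75S to 5. Fbp1 (0.62) lay just above it and did not pass with 3 groups of spots in place of 5 (0.48), which left a count of 2. The share of all genes past the limit was not taken under these alternatives.

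**Figure D4:**
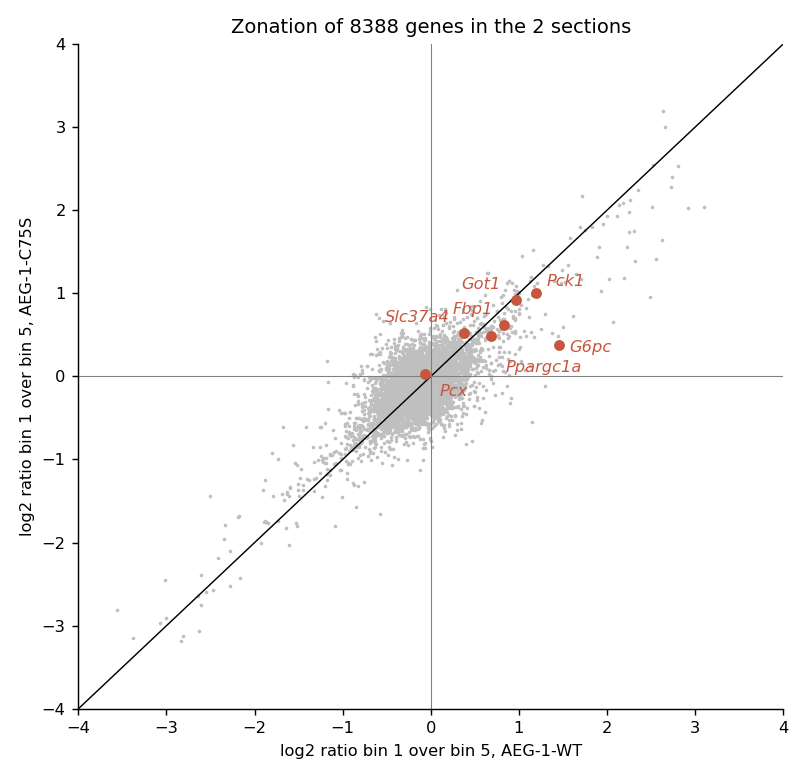
Zonation, as the log2 ratio of bin 1 (portal) over bin 5 (central), in WT (x axis) against C75S (y axis) for 8388 genes (grey), with the 7 genes in red and the line of equal zonation in black. G6pc lies at 1.45 and 0.38, below the line, whereas Pck1 lies near it at 1.19 and 1.0.

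Across single spots, described by Spearman's rank correlation with no test, Pck1 and Fbp1 went together most closely, at 0.63 over 2309 spots of WT and 0.48 over 2163 spots of C75S. Pck1 and G6pc were at 0.31 and 0.11. Within bins these values were lower, with medians of 0.26 and 0.19 for Pck1 with Fbp1 and 0.07 and 0.05 for Pck1 with G6pc, and spots of a section share their library and their totals.

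The genes whose pattern was most like that of a member were found by Pearson's correlation of log2 CPM over the 10 combinations of 5 bins and 2 sections, among 6883 genes with at least 1000 UMIs. For G6pc these were Myc, a transcription factor of cell growth (0.98), and Kynu, kynureninase (0.98). Myc was at 7.67 CPM in WT and 21.3 CPM in C75S, a log2 ratio of 1.47, and its zonation was 0.89 and 0.29. Kynu was at 177.2 CPM in WT and 223.4 CPM in C75S, a log2 ratio of only 0.33, and its zonation was 0.34 and 0.23. The correlation compares the shape of a pattern and not its size. Both genes were picked by it, so their smaller portal bias in C75S is no separate result. Hpx, which encodes the heme carrier hemopexin, was among the closest to both Pck1 (0.99) and Fbp1 (0.99). For Got1 the closest were Ftcd, an enzyme of histidine breakdown (0.99), and Hpx (0.99), for Slc37a4 Serpinf2 and Uox (0.96 each), for Pcx Pnpla7 (0.97) and Iigp1 (0.96), and for Ppargc1a Lzts2 and Serpina1a (0.93 each).

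The rest of the pathway was read from lists that had been chosen with earlier results of these data known. Of 13 other gluconeogenic and shared glycolytic enzymes, 11 were found, 9 had at least 100 UMIs, and none of the 9 passed 1.5-fold between the sections, beside 5.95% of all genes. Their median log2 ratio was -0.11, with 1 above 0 and 8 below, beside -0.05 for all genes. Over the whole sections, the paralogs did not follow G6pc. G6pc3, the ubiquitous glucose 6-phosphatase subunit, was at 7.17 and 5.86 CPM (-0.29 [-0.54 to -0.04]), Pck2, the mitochondrial form of the carboxykinase, at 15.2 and 12.4 CPM (-0.28 [-0.45 to -0.11]), and Got2, the mitochondrial aminotransferase, at 285.7 and 247.0 CPM (-0.21 [-0.25 to -0.17]). Fbp2, the muscle bisphosphatase, had 6 and 8 UMIs. Pck2 was the gene of this list whose ratio differed past 1.5-fold between the ends, at -0.62 [-1.19 to -0.05], beside 6.98% of all genes. In this difference Pck2 had the same direction as G6pc, with a zonation of 0.55 in WT and -0.08 in C75S. Mdh1, cytosolic malate dehydrogenase, was at -0.05 and Gpi1, glucose 6-phosphate isomerase, at 0.11.

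Of 15 measured genes that feed substrates into the pathway, 4 were lower and 2 higher past 1.5-fold, beside 4.08% lower and 1.87% higher of all genes, and the median was -0.32 beside -0.05. The 4 lower ones encode enzymes that degrade amino acids. Tat, tyrosine aminotransferase, was at 925.1 CPM in WT and 453.9 CPM in C75S (-1.03 [-1.05 to -1.0]). The alanine aminotransferases Gpt (-0.92) and Gpt2 (-0.92) and serine dehydratase Sds (-0.81) were also lower. The 2 higher ones were Slc16a1, a carrier of lactate and pyruvate (20.1 and 35.3 CPM, 0.81 [0.69 to 0.94]), and Gpd1, by which glycerol enters the pathway (86.6 and 144.1 CPM, 0.73 [0.68 to 0.79]). None of the 15 ratios differed past 1.5-fold between the portal and the central end, beside 6.98% of all genes.

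Among 10 genes of the opposing glycolytic steps, 1 was higher and 1 lower past 1.5-fold, beside 1.87% and 4.08% of all genes, with a median of 0.00. Pdk4 and Pdk2, kinases that switch off pyruvate dehydrogenase, went opposite ways, at 1.64 [1.4 to 1.89] (4.31 and 13.5 CPM) and -0.68 [-0.74 to -0.62] (136.5 and 85.3 CPM).

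Of 24 hormone and transcription regulators, 3 were higher and 3 lower past 1.5-fold, beside 1.87% and 4.08% of all genes, with a median of -0.10 beside -0.05. The higher ones were Nr0b2, the repressor SHP (40.7 and 83.1 CPM, 1.03 [0.95 to 1.11]), Irs2, an insulin receptor substrate (0.70 [0.60 to 0.80]), and Trib1, a pseudokinase (0.62 [0.50 to 0.75]). The lower ones were Klf15, a factor that induces amino acid breakdown (238.3 and 138.2 CPM, -0.79 [-0.83 to -0.74]), Esrra, a nuclear receptor partner of PGC-1α (-0.67 [-0.81 to -0.53]), and Foxo3 (-0.67 [-0.84 to -0.50]). The clock repressor Cry1, with 276 and 266 UMIs, was the only one of the 24 whose ratio differed past 1.5-fold between the ends (0.69), a share near the 6.98% of all genes.

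**Figure D5:**
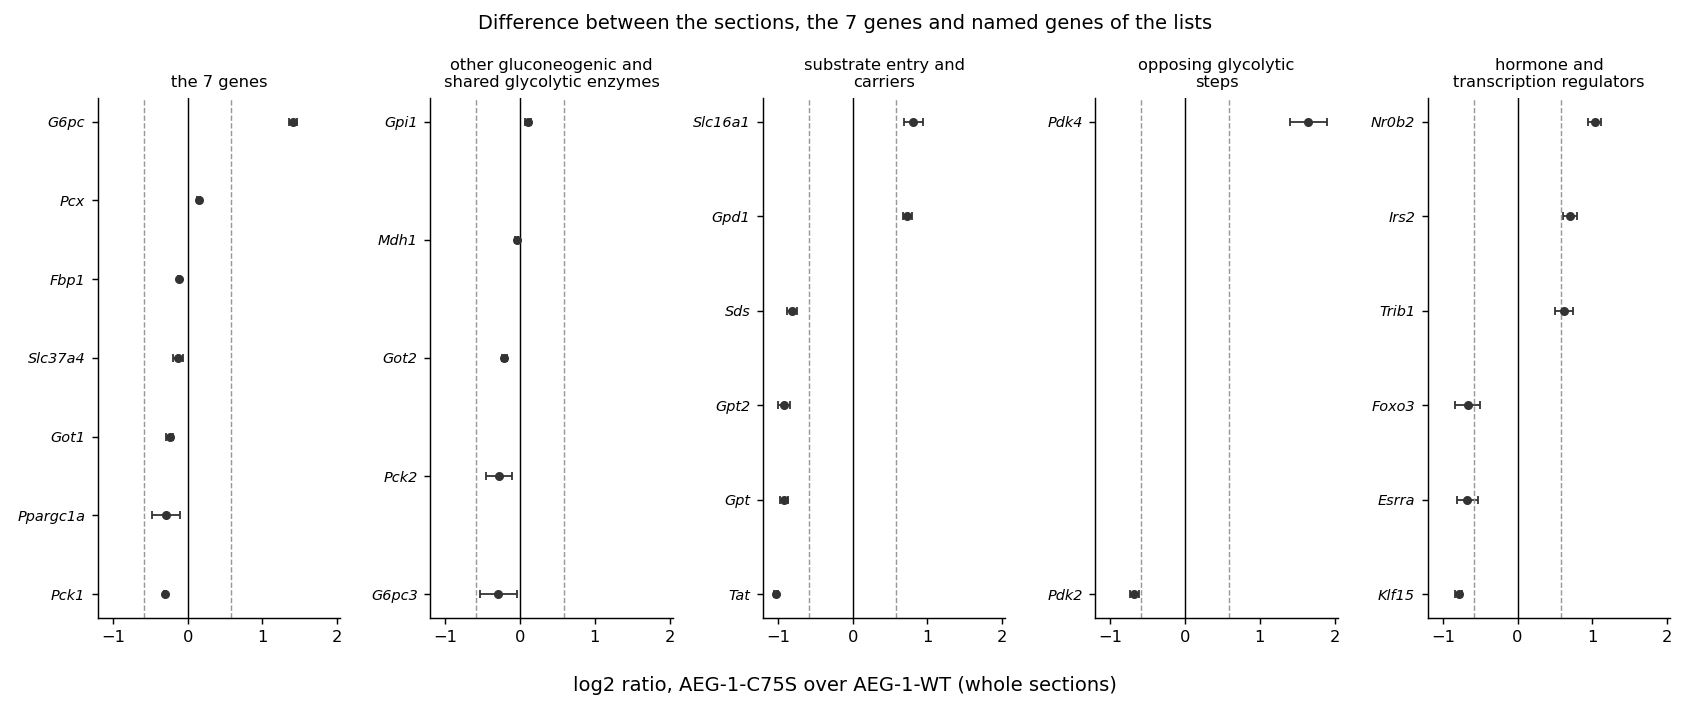
Log2 ratio of C75S over WT over the whole sections (x axis) for the 7 genes and for the genes of the 4 pathway lists that the text names by its rule. Bars are 95% intervals of counting error and dashed lines mark 1.5-fold. G6pc, at 1.41, is the only 1 of the 7 genes past a dashed line, and Pdk4, at 1.64, lies farthest to the right.

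Markers of other cells differed between the sections and along the axis to unlike degrees. The 4 markers of portal connective tissue, Mgp, Dpt, Col1a1 and Gsn, were all lower past 1.5-fold in C75S, beside 4.08% of all genes. Their summed level was 90.8 CPM in WT and 33.2 CPM in C75S, and 133.1 and 42.7 CPM in bin 1. The 2 cholangiocyte markers, Spp1 and Epcam, summed to 232.6 and 135.2 CPM in bin 1 and to 27.2 and 32.2 CPM in bin 5. The 5 Kupffer cell markers were each higher in C75S, and 1 of them (Marco) past 1.5-fold, beside 1.87% of all genes. They summed to 866.0 and 1159 CPM, with values in the bins from 749.7 to 959.3 CPM in WT and from 986.4 to 1340 CPM in C75S. The 4 stellate cell markers summed to 551.1 and 702.8 CPM, the 4 sinusoidal endothelial ones to 389.4 and 404.3 CPM, and the 3 red blood cell ones to 439.1 and 293.0 CPM. Without the 10% of spots richest in portal tract genes, the log2 ratio of G6pc was 1.5 over the section and its difference between the ends -0.98. The part of these other cells in the remaining values was not tested. With 1 mouse per genotype, genotype, animal and section cannot be told apart.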

How the data were processed

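1 liver section of 1 AEG-1-WT mouse and 1 of 1 AEG-1-C75S mouse were profiled on Visium spots. The deposited tables hold whole, unnormalized UMI counts of 19465 genes for the spots under tissue, which the authors made with Space Ranger 2.0.1, the mm10 reference and the probe set for mouse. Columns of other samples numbered 0. For the 11 repeated symbols, only the row listed first was read.

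Spots with at most 50000 UMIs were kept, and the limits of 100 and 7000 genes in the methods removed 0 further spots. UMIs were summed over a section or a bin and scaled to a total of 1000000 (CPM). Fold limits of 1.5 were applied to genes with at least 100 UMIs over the groups compared. Intervals, at 95%, are exact Poisson for levels, exact binomial (Clopper-Pearson) for ratios and exact conditional for differences between the ends, and were checked on simulated counts. They cover counting error only. The tools were edgeR 4.0.16 under R 4.3.3, for TMM factors, and scipy 1.17.1, pandas 2.3.3 and numpy 2.4.6 under python 3.11.15, for all else.

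The 7 genes, the lists and the motifs were chosen with earlier results of these data known. Named were the 7 genes, genes of each pathway list past 1.5-fold (otherwise the 2 highest and 2 lowest), the paralogs Pck2, Got2, G6pc3 and Fbp2, and the 2 genes most like each member. Of 102 listed genes, 6 were not found by symbol and were not analysed here. Some genes that the rule names are not reported here. All 7 genes matched a RefSeq promoter of GRCm38.p6. Alternatives varied the spots kept, the scaling, the weight and depth of spots, the axis, its division and the fold limit.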

Additional observations from a re-analysis of the deposited data

How the results depend on the processing

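Of 308 values of the 7 genes recomputed under the alternatives, 302 kept their direction, and the 6 that did not belong to Pcx, Ppargc1a and Got1. None of them was past 1.5-fold. Of the 308 values, 60 fell outside the interval of counting error of the main value, so processing can move a value by more than the printed interval. Between the sections, the log2 ratio of Pck1 ranged from -0.33 to -0.25 and left its interval under 6 of 8 settings. That of Fbp1 ranged from -0.13 to -0.06 and left its interval under 4 of 8. G6pc was the only gene of the 7 past 1.5-fold between the sections under all settings, with a log2 ratio from 1.39 to 1.5, and its difference between the ends ranged from -1.31 with 10 groups of spots to -0.82 with 3. Over the same settings the zonation of G6pc in AEG-1-C75S ranged from 0.34 to 0.49. The count of genes with portal zonation in AEG-1-WT was 2 with a limit of 2-fold. In AEG-1-C75S it was 5 with TMM factors, with centering on the median gene and with totals without the 20 most abundant genes, 4 with 10 groups of spots, with spots weighted to the same depth and with an axis from other markers, 2 with 3 groups of spots, where Fbp1 did not pass (0.48), 6 with a lower limit of 0.32 on the log2 scale and 1 with 2-fold. Slc37a4 and Ppargc1a, close to the limit, made the difference under the 3 scalings. For zonation, the share of all genes was taken only at 1.5-fold with the main settings. The counts under other limits and settings therefore have no background beside them. No paired analysis was possible because each genotype had 1 section, and for the same reason no replicate could be left out. Depth limits Ppargc1a most, with 78 to 129 UMIs per bin, and single spots held too few G6pc UMIs to be read one by one.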
